A study of Solanum tuberosum with 12 samples.

Results

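In cryopreserved potato shoot tips recovering under red and blue light-emitting diodes (LEDs), 125 of 39027 genes had at least 1.5 times the mean expression found under cool white fluorescent light while their levels in darkness and without cryopreservation stayed within set bounds. The genes were selected on the same expression values that are described here. Expression was given as CPM, the reads of a gene per 1000000 reads of its library, averaged over the 3 libraries of a group. A gene was taken if its LED mean was at least 3 CPM and at least 1.5 times the cool white mean, and if every LED library lay above every cool white library. Its cool white mean also had to lie above 0.25 times and under 1.5 times the non-cryopreserved mean, and its dark mean above 0.25 times the non-cryopreserved mean and under 1.75 times the LED mean. Every library therefore took part in the choice, and the values below describe the chosen genes without testing the choice itself. Of the 39027 genes, 27438 were read at least once in the 12 libraries and 19920 passed the filter on low counts, and all 125 members were among the latter.

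Plants read the spectrum of light through separate photoreceptors. Phytochromes respond mainly to red and far-red light, while cryptochromes and phototropins respond to blue light, and together they alter the expression of many nuclear genes. Fluorescent tubes emit a broad visible spectrum, so a change from such tubes to red and blue LEDs changes how strongly each receptor is driven. Cryopreservation exposes shoot tips to osmotic, dehydration and freezing stress, and the first days after rewarming are a period of oxidative stress and repair in which the light given is one of the conditions that can be set.

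All samples were shoot tips of the potato (Solanum tuberosum) genotype Agrie Dzeltenie, dissected from 3.5-week-old plants grown in vitro under cool white tubes, with 3 biological replicates in each of 4 groups and 10 tips pooled for each library. The groups called cool white, LED and dark had been treated with 10% dimethyl sulfoxide and 30% sucrose, frozen in droplets, held in liquid nitrogen for 1 h, rewarmed and kept for 48 h in darkness on a regeneration medium that contained a cytokinin, a gibberellin and an auxin. They were then given 16 h of cool white fluorescent light, of LEDs with 90% red and 10% blue light, or of further darkness, with both lights at 40 µmol per m2 per s. The non-cryopreserved group was trimmed, not frozen, and given cool white light only. The labels do not say whether it also passed through the dark incubation or the regeneration medium, so differences from that group cannot be told apart from such handling. Because RNA came from pooled whole tips, a smaller number of cells of some type and less RNA per cell cannot be told apart in any comparison.

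The libraries held between 6342324 and 10572258 counted reads. The gene identifiers are not paired with names in the files, and none of them matched the 32873 genes of a RefSeq table for the assembly SolTub_3.0. Members are therefore given by identifier, no pathway or role is assigned to them, and the labelled tissue could not be checked against marker genes. Levels of different genes are not compared, since gene lengths were not used here.

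The margin by which members were higher under LEDs was mostly small. The ratio of LED to cool white means had a median of 1.63, with quartiles of 1.54 and 1.79, a lowest value of 1.502 and a highest of 3.86. Only 14 members reached a ratio of 2, another 25 lay from 1.75 to 2, and 86 lay from 1.5 to 1.75. The nearest gene inside the ratio limit stood at 1.502 and the nearest outside at 1.499. For the other limits, the nearest values inside and outside were 3.02 and 2.88 CPM for the LED mean, 1.002 and 0.9989 for the lowest LED library over the highest cool white library, 1.49 and 1.52 for cool white over non-cryopreserved tips, and 1.69 and 1.77 for darkness over LEDs. At the lower limit for cool white over non-cryopreserved tips they were 0.261 and 0.195, and the lowest member had a ratio of darkness to non-cryopreserved tips of 0.283. Taken alone, the conditions on LED and cool white light admitted 193 genes, and 59 of these were left out because the cool white mean reached 1.5 times the non-cryopreserved mean. With LED and cool white light exchanged, the same conditions admitted 675 genes.

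How many genes met the rule depended on single libraries. Without LED replicate 3 the rule gave 279 genes, and without cool white replicate 3 it gave 206, of which 106 and 106 were members. Leaving out any LED or cool white library loosens the demand that these libraries not overlap. Each such removal raised the number, to between 143 and 279. LED replicate 3 was the lowest of the LED libraries for 63 members, or 50.4%, against 39.2% of all tested genes. LED replicate 1 was the highest for 68 members, or 54.4%, against 39.9% of tested genes. A raised minimum of 10 CPM under LEDs left 57 genes, and a minimum of 1 CPM admitted 188.

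In a test of single genes across the whole table, 25 of the 125 members were called higher under LEDs than under cool white light and 0 were called lower. The test was edgeR's quasi-likelihood F test on counts scaled by TMM (trimmed mean of M-values) factors, with p-values adjusted by the Benjamini-Hochberg method across 19920 genes and a threshold of 0.05. Adjusted p and standard errors (SE) below come from that fit unless another setting or tool is named. Over all tested genes, 0.377% were called higher and 1.06% lower, but the rule chose members on this very contrast, so the difference in shares describes the rule. For the same reason all 125 members had LED libraries above all cool white libraries, which held for 9.08% of tested genes. The median log2 fold change, LED minus cool white, was 0.71 over the members, with a range from 0.56 to 1.96, and -0.01 over all tested genes.

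The 25 calls changed in number or in members when single LED or cool white libraries were left out. There were 7 without cool white replicate 1, 6 without cool white replicate 3, 14 without LED replicate 1 and 8 without LED replicate 2. Without LED replicate 3 there were again 25, but only 16 of these were among the 25 called with all libraries. Without cool white replicate 2 there were 0 in edgeR, where the lowest adjusted p of a member was 0.0559. In that edgeR fit 99 members had an unadjusted p under 0.05, but members were chosen on this very contrast, so nothing is read from that number. Calls over the whole table moved as well, from 287 in both directions to 95, 19 and 81 without cool white replicate 1, 2 or 3. They became 252, 85 and 309 without LED replicate 1, 2 or 3. Without single non-cryopreserved or dark libraries, which are outside this contrast, they ranged from 172 to 328. The median log2 fold change of the members stayed between 0.68 and 0.75 when LED or cool white libraries were left out. The members were not chosen again for these fits, and the rule had kept their LED and cool white libraries apart, so this steadiness follows from the choice. DESeq2 on all libraries called 50 members, edgeR with no filter on low counts called 41, and edgeR fitted to the LED and cool white libraries alone called 11.

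Calls were more frequent among members with more reads. Of the 34 members with an LED mean under 5 CPM, 1 was called, with a median of 153 reads over the 6 LED and cool white libraries and a median standard error of 0.29 on the log2 scale. Of the 57 members from 5 to 20 CPM, 11 were called, with a median of 353 reads and a median standard error of 0.23. Of the 34 members at 20 CPM or more, 13 were called, with a median of 1665 reads and a median standard error of 0.18. The median ratio of LED to cool white means was 1.67, 1.62 and 1.57 in these ranges, and the highest ratio of all, 3.86, was in the range of 20 CPM or more. Calls were also more frequent at larger ratios, with 9 of the 14 members at a ratio of at least 2, 5 of the 25 from 1.75 to 2 and 11 of the 86 below that.

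**Figure D1:**
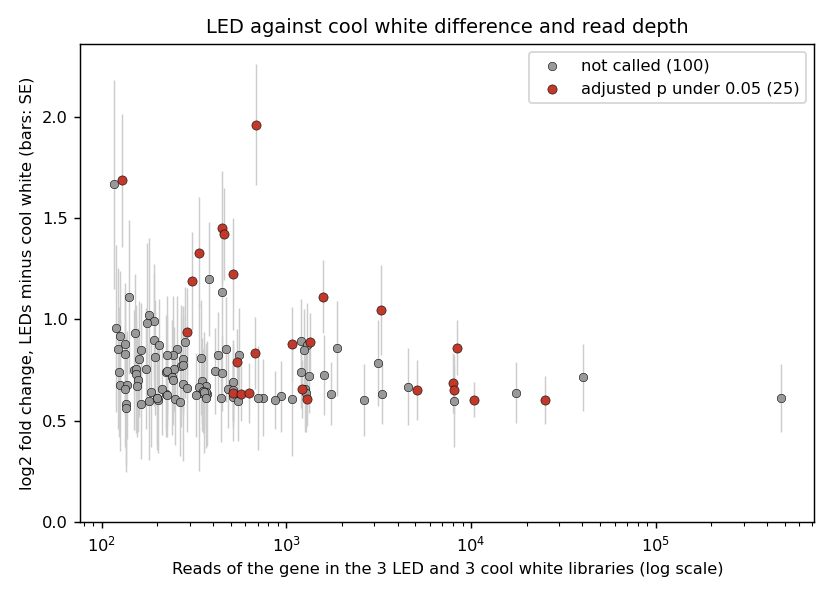
Each point is 1 of the 125 members, with its reads summed over the 3 LED and 3 cool white libraries on a log x axis and its log2 fold change, LED minus cool white, on the y axis. Bars are standard errors, red marks the 25 members with an adjusted p under 0.05 in edgeR, and the bars shorten from left to right while most points stay between 0.5 and 1.

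PGSC0003DMG400023770 had the highest ratio of LED to cool white light among members, at 3.86. Its libraries stood at 27.6, 20.5 and 13.6 CPM under LEDs and at 5.84, 4.43 and 5.73 CPM under cool white light. It stood at 11.8, 15.1 and 14.3 CPM in non-cryopreserved tips and at 9.70, 13.8 and 5.27 CPM in darkness. The LED libraries spread from 131 to 292 reads and overlapped the non-cryopreserved libraries, whereas the cool white libraries lay below all of the non-cryopreserved ones. In edgeR the log2 fold change was 1.96 (SE 0.30, adjusted p 0.0103) for LED minus cool white and -1.42 (SE 0.31, adjusted p 0.00168) for cool white minus non-cryopreserved. The LED call was lost without cool white replicate 2, at an edgeR adjusted p of 0.0756 and a log2 fold change of 1.85. Over all alternatives its adjusted p ran from 1.41e-07 in DESeq2 to 0.0756.

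PGSC0003DMG400023450 was another called member with a high ratio, 3.26, on far fewer reads. It had 27, 29 and 44 reads under LEDs, which are 2.55, 4.45 and 4.58 CPM, and 8, 10 and 10 reads under cool white light, which are 1.06, 1.30 and 1.19 CPM. Non-cryopreserved tips stood at 4.57, 4.91 and 4.17 CPM, and dark tips at 3.37, 1.90 and 2.78 CPM. All cool white libraries were lower than every other library. Its log2 fold change, LED minus cool white, was 1.69 (SE 0.33, edgeR adjusted p 0.0276), and that call was lost without any 1 of the 3 cool white libraries, without LED replicate 2 or 3, and when only LED and cool white libraries were fitted, with adjusted p up to 0.131. In these settings its log2 fold change stayed between 1.51 and 1.76.

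Relative to non-cryopreserved tips, members were mostly lower under cool white light and mostly near or above that level under LEDs. The cool white mean was the lowest of the 4 group means for 81 members, and the LED mean was the highest for 62. For 61 members the LED mean lay above the non-cryopreserved mean and the cool white mean below it, for 40 both lay below it, and for 24 both lay above it. The median ratio to the non-cryopreserved mean was 0.731 for the cool white mean, 1.29 for the LED mean and 0.891 for the dark mean. These comparisons share the 3 non-cryopreserved libraries, and the rule capped cool white light at 1.5 times their mean. It also required LED means of at least 1.5 times cool white, so cool white could not be highest nor LED lowest. The counts of positions therefore describe the choice, and no shares over all tested genes were computed for them.

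The rule placed every LED library above every cool white library for each member, so the order of these groups in single libraries was fixed by it. The median over members of the log2 ratio to the non-cryopreserved mean was -0.51, -0.58 and -0.45 in the cool white libraries and 0.35, 0.29 and 0.21 in the LED libraries. It was -0.10, -0.13 and -0.45 in the dark libraries, and -0.13, 0.08 and 0.06 in the non-cryopreserved libraries themselves. Dark replicate 3 stood apart from the other dark libraries, close to the cool white level.

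**Figure D2:**
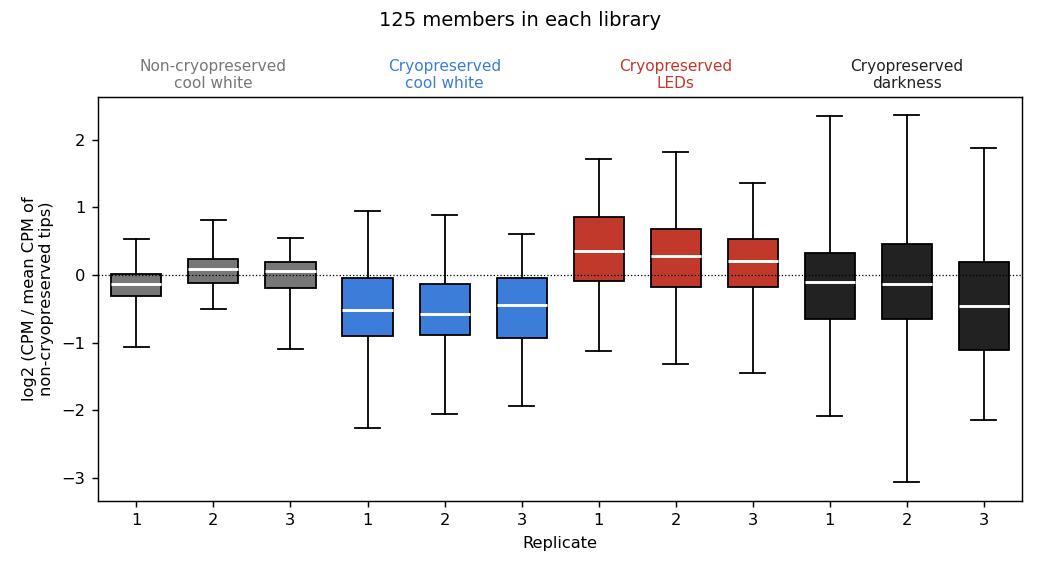
Boxes show, for each library, the quartiles and median over the 125 members of log2 CPM relative to the non-cryopreserved mean of the same gene, and whiskers reach the lowest and highest member. The medians lie between -0.58 and -0.45 in the cool white libraries and between 0.21 and 0.35 in the LED libraries, and the dark boxes span the dotted line that marks the non-cryopreserved mean.

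Under LEDs, 39 members (31.2%) were called higher and 12 (9.6%) lower than in tips that had not been frozen (edgeR). Over all tested genes, 27.3% were called higher and 23.3% lower, so the share of higher members was near that of all tested genes and the share of lower members was below it. All LED libraries lay above all non-cryopreserved libraries for 46 members, against 31.5% of tested genes, and below them for 16, against 24.7%. The median log2 fold change, LED minus non-cryopreserved, was 0.32 over members and 0.03 over all tested genes. The rule set no direct limit on this contrast. It set a floor indirectly, since LED means were at least 1.5 times cool white and cool white means above 0.25 times non-cryopreserved. The lowest member ratio of LED to non-cryopreserved means was 0.459. The rule also used these libraries and required high LED values, so a shift upwards is built in to an extent that was not tested.

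PGSC0003DMG400009124 led the members called higher under LEDs than in non-cryopreserved tips. It stood at 15.1, 11.8 and 10.5 CPM under LEDs and at 2.21, 5.77 and 5.86 CPM in non-cryopreserved tips. Under cool white light it stood at 5.04, 2.99 and 5.73 CPM and in darkness at 15.9, 18.0 and 14.2 CPM. The cool white and non-cryopreserved libraries overlapped at the low end, and the LED and dark libraries formed the high end. Its log2 fold change in edgeR was 1.37 (SE 0.28, adjusted p 0.00106) for LED minus non-cryopreserved and 1.87 (SE 0.28, adjusted p 0.000336) for dark minus cool white.

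PGSC0003DMG402022238 came next in that comparison. It stood at 4.26, 6.13 and 4.68 CPM under LEDs and at 1.104, 3.19 and 1.17 CPM in non-cryopreserved tips, which correspond to 7, 26 and 9 reads. The second non-cryopreserved library lay well above the other 2 of its group. The log2 fold change of 1.37 (SE 0.35, adjusted p 0.00493 in edgeR) became 2.05 without that library, 1.15 without the first and 1.111 without the third. Cool white tips stood at 2.39, 3.39 and 2.27 CPM, and dark tips were the highest at 9.30, 9.37 and 6.73 CPM.

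The members called lower under LEDs than in non-cryopreserved tips were lower still under cool white light, as the rule requires. PGSC0003DMG400012841 stood at 7.88, 10.3 and 10.3 CPM in non-cryopreserved tips, at 4.35, 3.83 and 4.89 CPM under LEDs, at 1.99, 3.39 and 3.10 CPM under cool white light and at 4.58, 2.53 and 2.93 CPM in darkness. All 9 cryopreserved libraries lay below the 3 others. Its log2 fold change in edgeR was -1.16 (SE 0.24, adjusted p 0.00131) for LED minus non-cryopreserved and -1.80 (SE 0.26, adjusted p 6.72e-05) for cool white minus non-cryopreserved. PGSC0003DMG402006315 stood at 25.1, 23.5 and 22.1 CPM in non-cryopreserved tips, at 14.3, 13.8 and 10.9 CPM under LEDs and at 8.76, 8.46 and 8.71 CPM under cool white light. It stood at 7.68, 12.8 and 6.58 CPM in darkness, where 1 library reached the LED range. The same edgeR test gave log2 fold changes of -0.90 (SE 0.18, adjusted p 0.00099) for LED minus non-cryopreserved and -1.498 (SE 0.19, adjusted p 2.47e-05) for cool white minus non-cryopreserved.

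Under cool white light, 58 members (46.4%) were called lower and 2 higher than in non-cryopreserved tips, where 21.5% of all tested genes were called lower and 27.8% higher. The median log2 fold change, cool white minus non-cryopreserved, was -0.49 over members and 0.05 over all tested genes. The rule bounded this contrast on both sides and asked for low cool white values, so nothing is read from these shares. The 2 higher members were PGSC0003DMG400003701 and PGSC0003DMG400003771, named after their values were seen. They stood at 120, 125 and 128 CPM against 82.1, 110.1 and 83.4 CPM, and at 401, 374 and 399 CPM against 249, 232 and 307 CPM, cool white against non-cryopreserved libraries. The count of 2 became 1 without non-cryopreserved replicate 1 or 3 and 7 without non-cryopreserved replicate 2, and was 1 under upper quartile scaling.

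**Figure D3:**
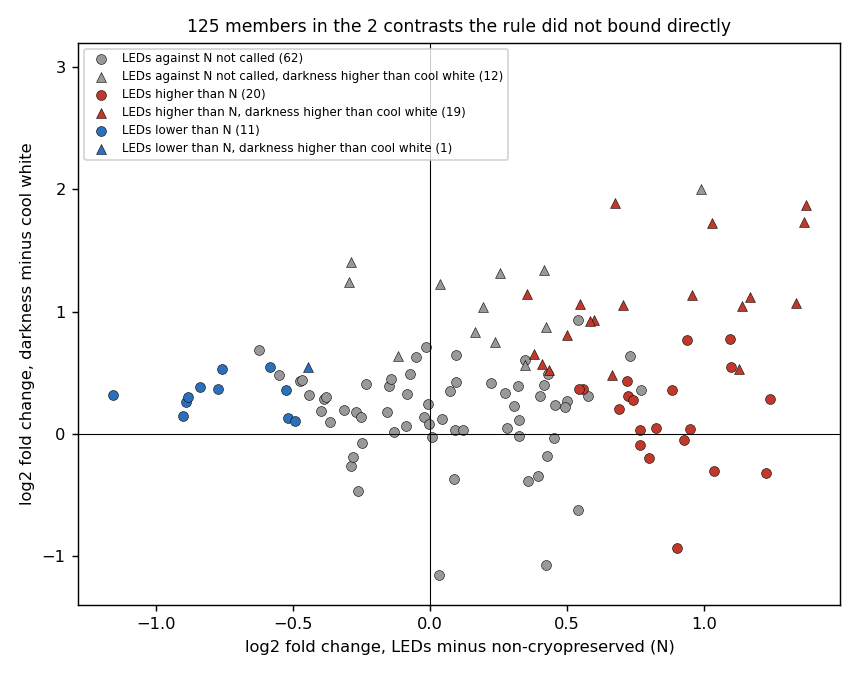
Each point is 1 of the 125 members, with its log2 fold change for LED minus non-cryopreserved tips on the x axis and for dark minus cool white tips on the y axis, a pair of contrasts that shares no library. Red and blue mark the 39 members called higher and the 12 called lower on the x axis, triangles mark the 32 called higher on the y axis, and most points lie above 0 on the y axis.

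In darkness, members lay on either side of their levels under both lights. The dark mean lay above the cool white mean for 97 members and above the LED mean for 25. For 72 it lay between these means and for 28 below the cool white mean. It was the highest of the 4 group means for 24 members and the lowest for 23. The ratio of dark to cool white means ran from 0.425 to 3.81, with a median of 1.21 and quartiles of 1.02 and 1.47. The median coefficient of variation between dark replicates was 19.3% over members and 12.3% over all tested genes. It was 15.04% and 14.3% among LED libraries, 17.0% and 10.5% among cool white libraries and 17.7% and 12.4% among non-cryopreserved libraries. Members and tested genes were not matched for expression level. The rule also kept LED and cool white libraries apart, so nothing is read from these differences.

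In the edgeR fit, 32 members (25.6%) were called higher in darkness than under cool white light, where 4.55% of all tested genes were. None was called lower, where 10.4% of all tested genes were. Log2 fold changes, dark minus cool white, were above 0 for 105 of the 125 members, or 84.0%, against 49.8% of tested genes, with a median of 0.36 over members and -0.0014 over all tested genes. All dark libraries lay above all cool white libraries for 40 members, against 10.3% of tested genes, and below them for 6, against 25.2%. Beside the count of 0 lower members, 5 members had an unadjusted p under 0.05 in that direction, the lowest adjusted p was 0.0864, and DESeq2 and limma voom also called 0, while edgeR on the dark and cool white libraries alone called 3. Without cool white replicate 1 the 32 higher members became 20. The rule asked for low cool white values, which raises any contrast with that group. How much of the excess this accounts for was not tested.

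Among called members with a mean of at least 3 CPM over all libraries and no overlap between the groups, PGSC0003DMG400019305 had the highest log2 fold change of dark minus cool white. It stood at 68.8, 79.4 and 57.5 CPM in darkness and at 20.3, 16.3 and 21.8 CPM under cool white light. The LED libraries stood at 44.6, 42.3 and 38.5 CPM and the non-cryopreserved libraries at 16.6, 30.0 and 29.4 CPM. The dark, LED and cool white libraries formed 3 separate levels with no overlap. In edgeR, dark minus cool white was 1.89 (SE 0.18, adjusted p 7.84e-06), LED minus cool white was 1.113 (SE 0.18, adjusted p 0.0131, a call that no member kept without cool white replicate 2) and dark minus LED was 0.78 (SE 0.17, adjusted p 0.0101) on the log2 scale. PGSC0003DMG400009124, described above, came next.

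**Figure D4:**
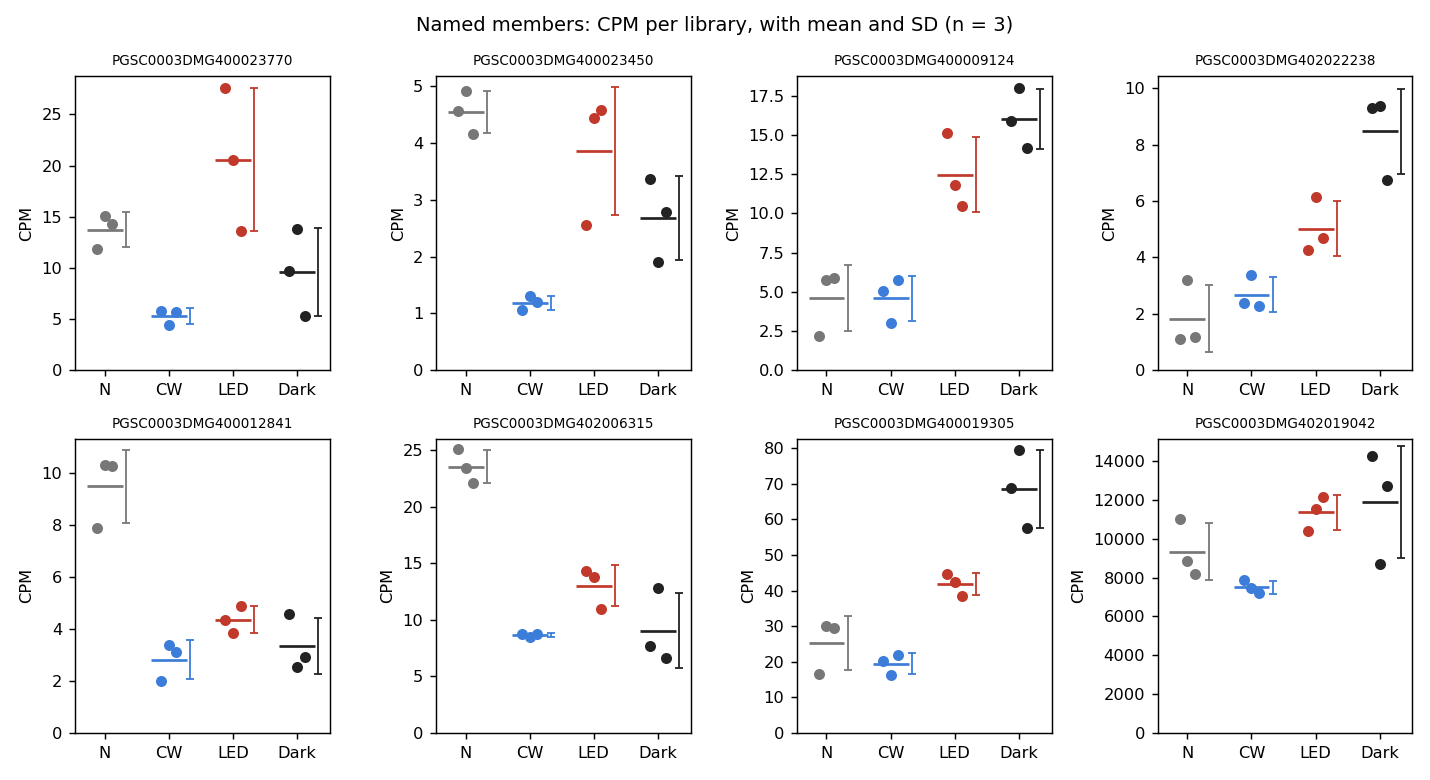
Points are CPM in single libraries of 8 members in non-cryopreserved (N), cool white (CW), LED and dark tips, with horizontal lines for means and bars for the SD over 3 libraries. The cool white mean is the lowest in PGSC0003DMG400023770 and PGSC0003DMG400023450, the dark mean is the highest in PGSC0003DMG400019305, and the non-cryopreserved mean is the highest in PGSC0003DMG400012841 and PGSC0003DMG402006315.

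Against LEDs, 18 members (14.4%) were called lower in darkness and 2 (1.6%) higher in edgeR. Of all tested genes, 7.17% were called lower and 3.46% higher. The median log2 fold change, dark minus LED, was -0.41 over members and -0.01 over all tested genes. The rule capped darkness at 1.75 times LED, and it selected high LED values, so these counts describe the choice. The 2 higher members were PGSC0003DMG400019305 and PGSC0003DMG401022238, the latter named after its values were seen, and the count became 1 without LED replicate 1, dark replicate 1 or dark replicate 3. The 18 lower members became 11 without LED replicate 1. Against non-cryopreserved tips, 21 members (16.8%) were called higher in darkness and 41 (32.8%) lower in edgeR. Of all tested genes, 27.7% were called higher and 27.6% lower. The median log2 fold change, dark minus non-cryopreserved, was -0.14 over members and -0.01 over all tested genes. The rule set dark means above 0.25 times non-cryopreserved and under 1.75 times LED, so nothing is read from these shares.

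The contrasts of LED against non-cryopreserved tips and of dark against cool white tips share no library, although the rule linked all 4 groups. Of the 39 members called higher in the first, 19 were also called higher in the second, which is 48.7% of that list and 59.4% of the 32 called in the second. Over all tested genes, 330 were called higher in both, which is 6.07% of those called in the first and 36.4% of those called in the second. Since the rule asked for high LED and low cool white values, nothing is read from the difference in shares. These 19 had a median log2 fold change of 0.68 for LED minus non-cryopreserved, 1.05 for dark minus cool white, 1.05 for dark minus non-cryopreserved and -0.08 for cool white minus non-cryopreserved. A further 20 were called higher under LEDs than in non-cryopreserved tips without a call in the second contrast, and for these dark minus non-cryopreserved had a median of 0.23. Of the 12 called lower under LEDs, 1 was called higher in darkness than under cool white light and 11 were not called. The remaining members comprised 12 called in the second contrast alone, and 62 called in neither.

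**Figure D5:**
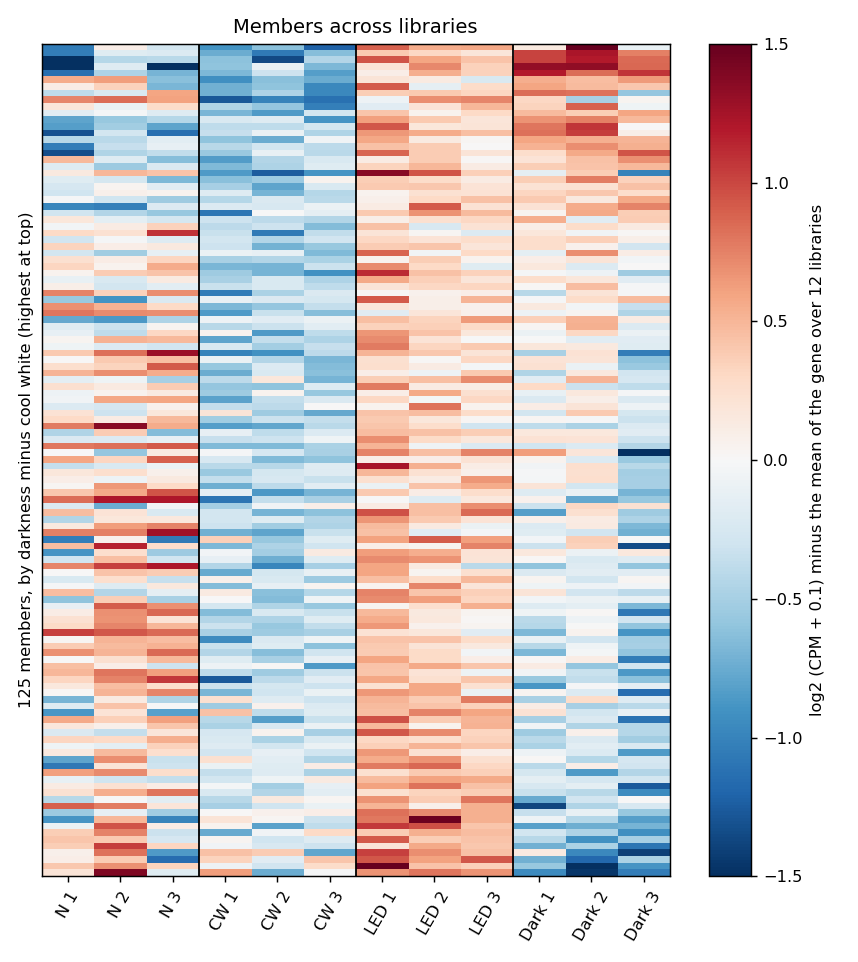
Rows are the 125 members, ordered by the difference of dark minus cool white from highest at the top, and columns are the 12 libraries. Colour is log2 (CPM + 0.1) minus the mean of the gene over 12 libraries, and the cool white columns are blue and the LED columns red for most rows by the rule, while the dark columns run from red at the top to blue at the bottom.

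Single dark libraries also stood apart among the members. Dark replicate 3 was the lowest of the dark libraries for 72 members, or 57.6%, against 39.9% of tested genes. Dark replicate 2 was the highest of them for 63 members, or 50.4%, against 39.6% of tested genes. For 41 members, or 32.8%, LED replicate 3 and dark replicate 3 were both the lowest library of their group, which held for 16.4% of tested genes. LED replicate 3 alone was the lowest for 50.4% of members against 39.2% of tested genes. How much of the joint share follows from the shares of the 2 single libraries was not tested. The cause was not tested. No batch is given in the labels, and whether replicate numbers pair libraries across groups could not be decided from these data.

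As a share of all reads, members took 1.28% ± 0.134 in the non-cryopreserved group, 1.05% ± 0.0293 in the cool white group, 1.61% ± 0.0535 in the LED group and 1.63% ± 0.283 in the dark group (SD, n = 3). Most of that was 1 gene, PGSC0003DMG402019042, named because its reads decide the sum. It took from 0.719% of reads in the third cool white library to 1.43% in the first dark library. All other members together took between 0.276% and 0.523%, lowest in the second cool white library and highest in the first LED library. PGSC0003DMG402019042 stood at 10394, 11525 and 12154 CPM under LEDs, at 7862, 7445 and 7187 CPM under cool white light, at 14268, 8707 and 12736 CPM in darkness and at 11008, 8827 and 8170 CPM in non-cryopreserved tips. Cool white libraries were the lowest of all, and 2 of the 3 dark libraries lay above every other library while dark replicate 2 lay among the non-cryopreserved ones. Its edgeR adjusted p for LED minus cool white was 0.0807 (log2 fold change 0.61, SE 0.17), which missed the threshold with 57180 to 116854 reads of the gene in each of the 6 libraries.

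Members include 3 pairs of identifiers that share their last digits, and what the shared digits stand for is not given in the files. PGSC0003DMG401019042 is the partner of the gene just described, with means of 289 CPM in the non-cryopreserved, 273 in the cool white, 421 in the LED and 453 in the dark group. PGSC0003DMG401022238 and PGSC0003DMG402022238 form another pair, with cool white means of 3.96 and 2.68 CPM, LED means of 7.59 and 5.02 CPM and dark means of 12.4 and 8.47 CPM. In both pairs the order from cool white to LED to dark means was the same for both partners. PGSC0003DMG401019533 and PGSC0003DMG402019533, the last pair, had LED means of 190 and 76.9 CPM, cool white means of 127 and 45.0 CPM and dark means of 145 and 49.2 CPM. The sources used here do not state how reads that fit both partners were counted. The split of reads within a pair is uncertain and partners may not be independent.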

How the data were processed

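RNA was measured in 12 libraries, and the files hold raw read counts per gene, deposited by the authors with 1 file per sample and no normalization. Tools named in the submitters' processing notes were Bowtie 1.1.1, DESeq2 1.14.1, FastQC 1.11.2, TopHat2 2.0.8b and featureCounts 1.5.0. Per the labels' protocols, libraries were made with a stranded kit for polyadenylated RNA. The build, annotation, strand option and handling of reads with several matches were not given in the sources used here. Counts are therefore uncertain for genes that overlap, lie antisense to another or have a near-identical copy. The number of deposited columns left unused was 0.

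The 125 genes were found by the stated rule on CPM from library totals, without scaling factors. The members and all lists, rules and tests were chosen with earlier results of these data known. Tests were run in R 4.3.3 with edgeR 4.0.16 (glmQLFit and glmQLFTest) on all 12 libraries with group as the factor, which left 8 residual degrees of freedom. The filterByExpr filter (count of at least 10, total of at least 15) left 19920 genes, counts were scaled by TMM, and two-sided p-values were given a Benjamini-Hochberg adjustment over all of them. Printed CPM are unscaled, whereas log2 fold changes are TMM-scaled. The script was tested on simulated data. Each of the comparisons of LED with cool white, LED with non-cryopreserved and dark with cool white was given its 2 highest called members by log2 fold change. These had a mean of at least 3 CPM over all libraries and no overlap between groups. By the same limits the 2 lowest were given for LED with non-cryopreserved only, since no member was called lower in the other comparisons. Alternatives were other scalings, DESeq2 1.42.0, limma 3.58.1 voom, other filters, a fit without the groups not compared, a block for the replicate number, and each library left out. No gene list or marker set could be matched to the identifiers, so none was counted.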

Additional observations from a re-analysis of the deposited data

How the results depend on the processing

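The number of genes meeting the rule was 125, and became 14 with a ratio of at least 2, 188 and 57 with LED minimums of 1 and 10 CPM, and 117 to 279 when single libraries were left out. With TMM, upper quartile or DESeq2 factors it was 133, 163 and 163, of which 121, 119 and 119 were members. Members called higher under LEDs than cool white light numbered 25, and 50 in DESeq2 and 41 with no filter on low counts. They numbered 11 in a fit of only the groups compared and 0 to 25 with single LED or cool white libraries left out. For calls in a single comparison, members were counted only with libraries of the groups compared left out. The 25 called without LED replicate 3 held only 16 of the 25 called with all libraries. The replicate block gave 7 called members, and moved calls between LED and cool white light over all genes from 287 to 135. Deviations of same-numbered libraries correlated between -0.242 and 0.201 and exceeded 0.1 in 4 of 18 pairs. Those of differently numbered libraries correlated between -0.218 and 0.208. With 3 libraries per group these values cannot decide whether replicate numbers pair libraries across groups. With single libraries left out, members higher in darkness than under cool white light ranged from 20 to 31, members higher under cool white light than in non-cryopreserved tips from 1 to 7 (and 1 with upper quartile scaling), members higher in darkness than under LEDs from 1 to 2, and members lower in darkness than under LEDs from 11 to 24. Members lower in darkness than under cool white light became 3 when only the groups compared were fitted. For these changes the cause was not tested. The other counts stayed within 1.5 times under every alternative, among them the 39 higher and 12 lower members under LEDs against non-cryopreserved tips. The joint count of 19 members, for which the same alternatives were chosen after seeing the data, ranged from 14 to 19. In the comparisons for which the naming rule chose them, no member changed direction, and PGSC0003DMG400023770 and PGSC0003DMG400023450 lost their calls in 1 and 7 alternatives, the latter with an adjusted p of 0.0532 under the replicate block in edgeR, while DESeq2 gave it no adjusted p. Library size scaling moved the median log2 fold change of all genes, cool white minus non-cryopreserved, from 0.05 to 0.11. Below 5 CPM, 1 of 34 members was called, and the part of depth in this was not tested.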
